A study of Sus scrofa with 9 samples.

Results

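Messenger RNA of the contractile apparatus was followed in the hearts of female Yorkshire pigs, 4 to 6 months old, in which donation after circulatory death (DCD, organ recovery after the circulation has stopped) was simulated. Of the 49 sarcomere and Z-disc genes looked for by symbol, 38 were found among the 25149 genes of the expression table, and those 38 are described here. Of the 38, 11 belong to the thin filament, 5 to the thick filament, 2 to titin and the M-band, 14 to the Z-disc and the intermediate filament, 3 to the stress-responsive and intercalated disc genes, and 3 to assembly and turnover. Not found by symbol were MYH6, MYL2, MYL7, TTN, LDB3, MYOZ2, MYOM2, XIRP1, SMPX, NEXN and MYLK3.

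All 9 hearts underwent 15 min of warm ischemia before recovery and 2 h of normothermic machine perfusion (NMP, reperfusion with warm blood on a bench-top circuit) after storage. The 3 hearts of NRP + SCS 2 h (pigs 24, 25 and 29) received NRP for 60 min (normothermic regional perfusion, which restores the circulation inside the body) and then 2 h of static cold storage (SCS) at 4 °C. The 3 hearts of NRP + HOPE 24 h (pigs 27, 28 and 30) received the same 60 min of NRP and then 24 h of hypothermic oxygenated perfusion (HOPE) at 8 °C. The 3 hearts of No NRP + HOPE 2 h (pigs 31, 33 and 34) were taken directly, with 0 min of NRP, and kept in HOPE for 2 h at 8 °C. NRP + HOPE 24 h set against NRP + SCS 2 h addresses the mode of storage, but its length and temperature differ as well. No NRP + HOPE 2 h hearts set against those of NRP + SCS 2 h address NRP, but the mode of storage differs too, and within these groups the effects of NRP and of storage cannot be told apart. Both comparisons share the NRP + SCS 2 h hearts. No heart without circulatory death or without NMP was analysed here. In each pig 1 biopsy of the apex was sequenced at the end of NMP, so n is the number of pigs.

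The sarcomere is the contractile unit of striated muscle. Thick filaments of myosin pull on thin filaments of actin, tropomyosin and troponin, and calcium binding to troponin starts the contraction. The thin filaments are anchored in the Z-disc, where alpha-actinin, filamin C, LIM domain proteins and the titin-binding proteins meet, and desmin ties the Z-discs to each other and to the cell border. Several Z-disc and titin-associated proteins, such as the ankyrin repeat proteins ANKRD1 and ANKRD2, are also known as responders to mechanical stress.

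Expression was deposited as TPM (reads per gene corrected for gene length and scaled to a common total of 1000000 in each heart), so levels of different genes can be compared on the TPM scale. Values per heart are given below in the order of pigs 24, 25 and 29, then 27, 28 and 30, then 31, 33 and 34. Differences are log2 fold changes of TPM + 1 from limma, fitted to all 9 hearts and the 11782 genes that reached 1 TPM in 3 or more hearts. A gene was called where its Benjamini-Hochberg adjusted p was under 0.05 and its log2 fold change was beyond 1 in either direction. Of the 38 genes, 36 were tested. LMOD3, which nucleates thin filaments, and MYOZ1, a calcineurin-binding Z-disc protein, were too low to be tested.

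The samples are labelled as cardiomyocytes, but markers of other cells were present in every heart. The endothelial gene PECAM1 lay between 99.7 and 234 TPM, and the fibroblast gene DCN lay between 280 and 457 TPM. The 13 mitochondrially encoded protein genes took 38.2% (pig 30) to 55.3% (pig 27) of all TPM. The median-of-ratios size factor of the TPM ran from 0.728 in pig 27 and 0.771 in pig 31 to 1.33 in pig 30. The 3 NRP + SCS 2 h hearts lay between 1.05 and 1.07, and the spread lay within the other groups. Since the deposited values were TPM, sequencing depth is unknown.

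The contractile genes differed widely in level, from a mean over the 9 hearts of 0.54 TPM for MYOZ1 to 12889.5 TPM for TNNI3. Together the 38 genes took 6.9995%, 7.28% and 5.85% of all TPM in the NRP + SCS 2 h hearts, 5.80%, 5.15% and 8.80% in the NRP + HOPE 24 h hearts, and 5.55%, 5.51% and 7.04% in the No NRP + HOPE 2 h hearts. The groups overlapped, and the highest and the lowest of the 9 shares both came from NRP + HOPE 24 h hearts. The highest share belonged to pig 30, the heart with the lowest mitochondrially encoded share. With the mitochondrially encoded genes left out of the total, the shares ran from 10.8% (pig 33) to 14.4% (pig 25), and pig 30, at 14.2%, no longer stood above the rest. TNNI3, TNNC1, TNNT2, MYL3 and ACTA1 alone made up 70.3% of the summed TPM of the 38 genes. In bulk tissue, fewer cardiomyocytes and less of a transcript per cardiomyocyte cannot be told apart, which holds for every value below.

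**Figure D1:**
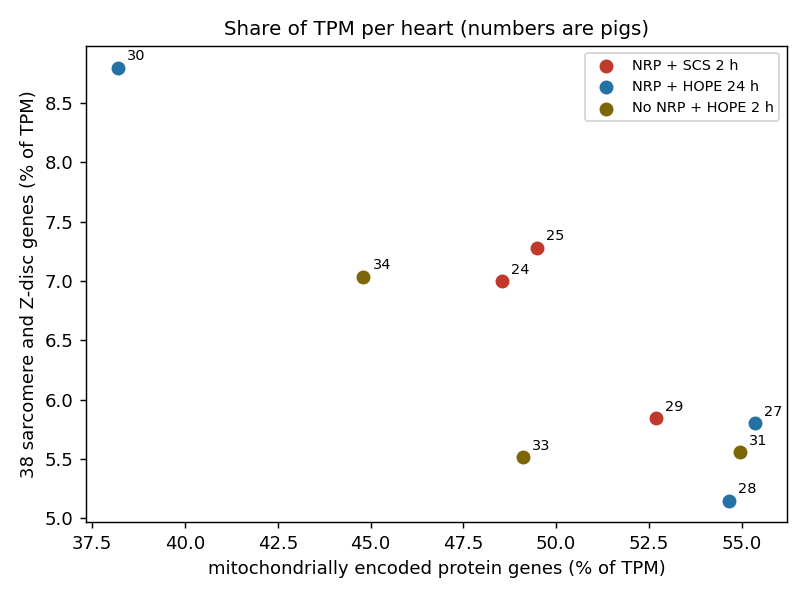
Summed TPM of the 38 sarcomere and Z-disc genes (vertical axis, % of all TPM) against the summed TPM of the 13 mitochondrially encoded protein genes (horizontal axis, % of all TPM), 1 point per heart, coloured by group and numbered by pig. Pig 30 stands apart with 8.80% and 38.2%, and the colours of the 3 groups are mixed along both axes.

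In none of the comparisons was a sarcomere or Z-disc gene called by limma. Of all genes tested, 0.0255% were called between NRP + HOPE 24 h hearts and those of NRP + SCS 2 h, and 0.0509% between the No NRP + HOPE 2 h hearts and those of NRP + SCS 2 h. At an unadjusted p under 0.05, and without a limit on fold change, 4 of the 36 genes were lower and 0 were higher after HOPE 24 h than after SCS 2 h, which is 11.1% of them against a background of 4.97% of all genes. In the comparison without and with NRP, 6 were lower and 0 were higher in the hearts without NRP, which is 16.7% against a background of 7.22%. Against the background in each direction, the lower genes (4 and 6 of 36) stood beside 3.14% and 4.65% of all genes, and the higher genes (0 in both) beside 1.82% and 2.57%.

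The size of the differences over the whole apparatus was small. The median log2 fold change of the 36 genes was -0.14 after HOPE 24 h relative to SCS 2 h, beside -0.12 for all genes tested, and 23 of the 36 (63.9%) were below 0, beside 64.1% of all genes. In No NRP + HOPE 2 h relative to NRP + SCS 2 h, the median was -0.20, beside -0.07 for all genes, and 29 of the 36 (80.6%) were below 0, beside 57.8% of all genes. Median-of-ratios scaling, which sets the median gene near 0, moved the medians of the 36 genes to 0.00 and -0.10. In the second comparison 22 of the 36 genes (61.1%) were then below 0 and 14 above, beside 49.3% of all genes. Single hearts also moved these medians. For HOPE 24 h relative to SCS 2 h, the median was -0.41 without pig 30 and 0.06 without pig 27. For No NRP + HOPE 2 h, it was -0.44 without pig 34 and -0.07 without pig 31.

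**Figure D2:**
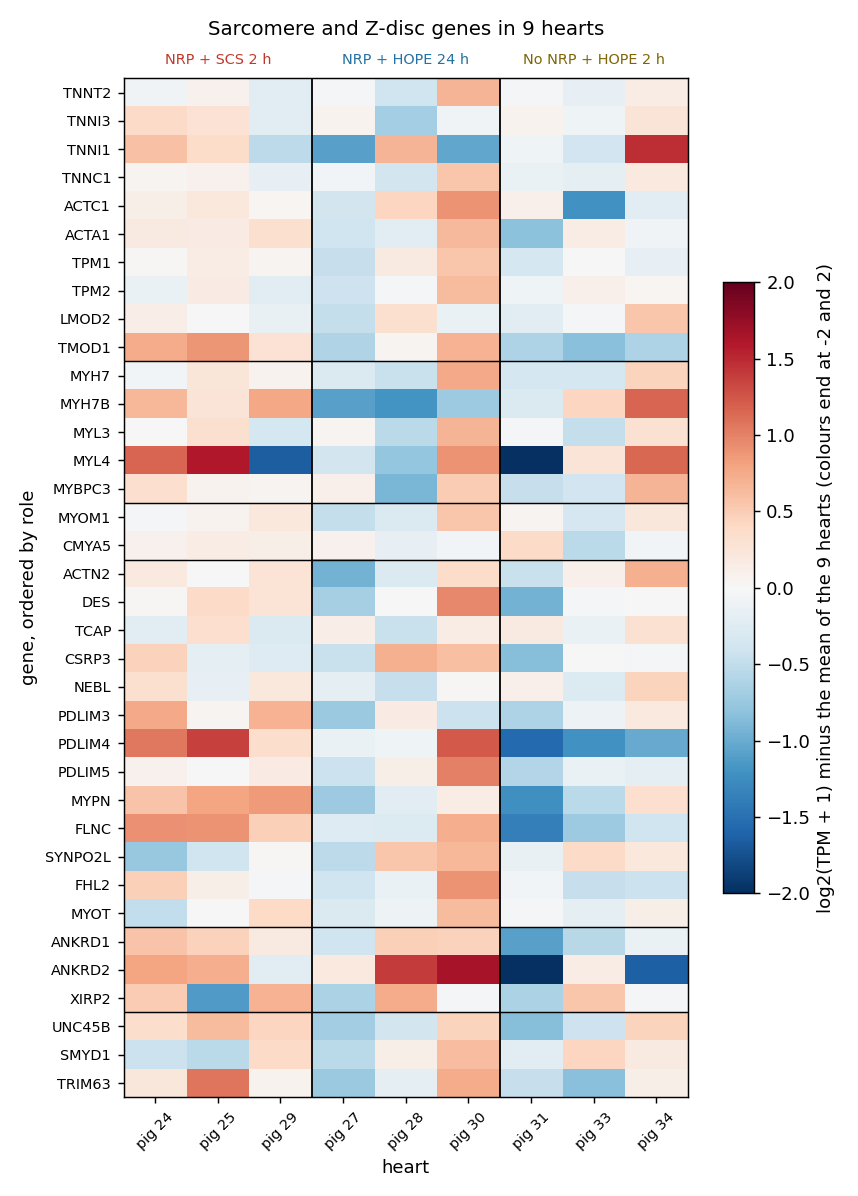
Level of each of the 36 tested genes in each of the 9 hearts, as log2(TPM + 1) minus the mean of that gene over the 9 hearts (colour scale from -2 to 2), with genes ordered by role and hearts by group. Pig 30 is the highest heart for 16 of the 36 genes (44.4%, beside 33.8% of all genes), and the blue cells of TMOD1, PDLIM4 and FLNC fill all 3 columns of No NRP + HOPE 2 h.

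**Figure D3:**
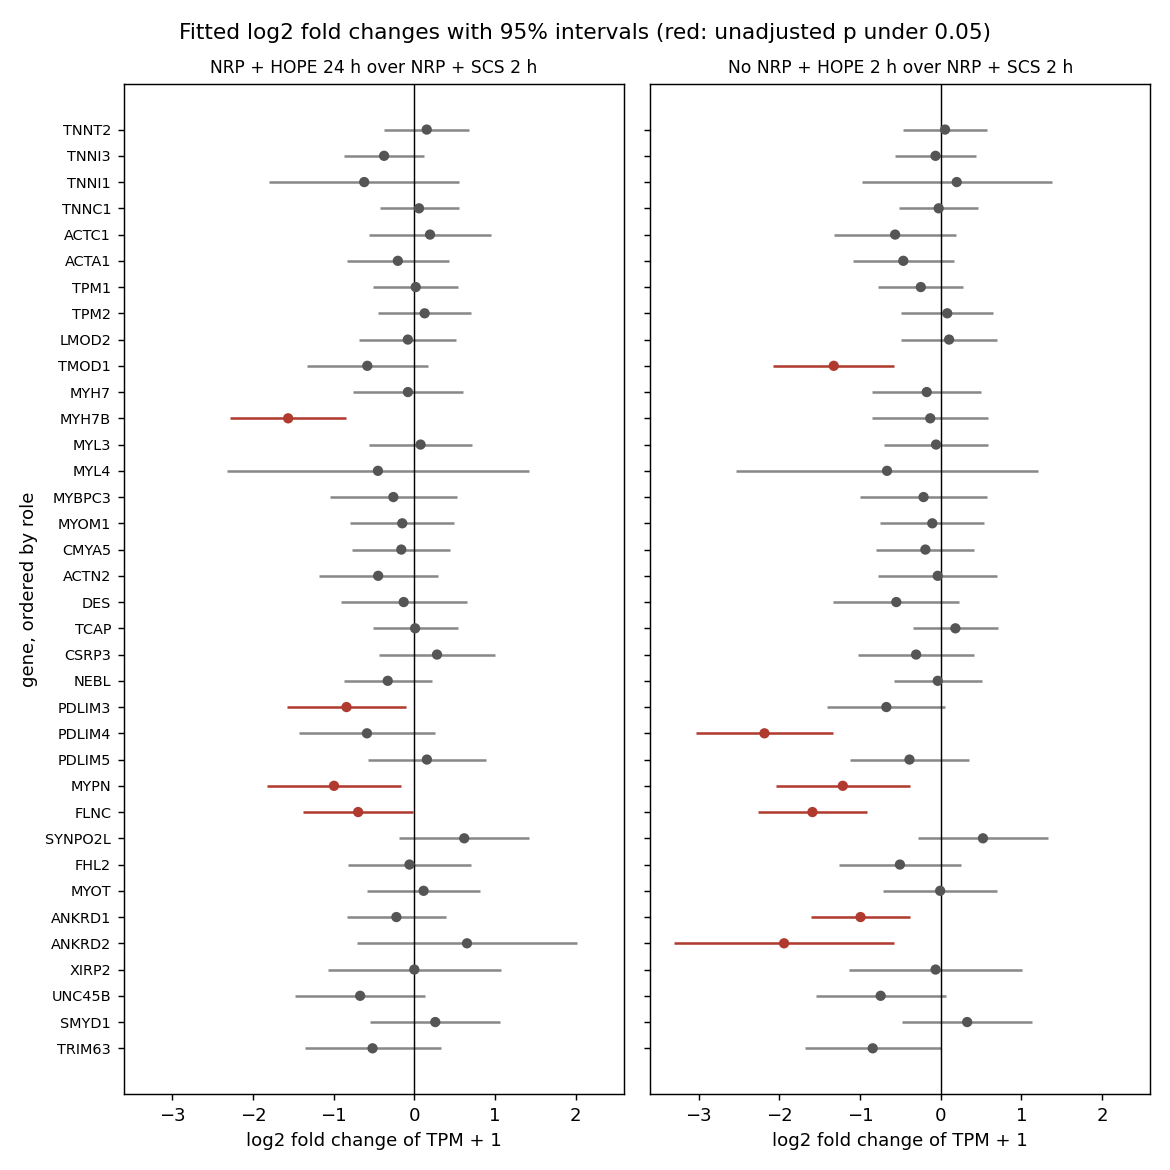
Fitted log2 fold changes of TPM + 1 (points) with 95% confidence intervals (lines) for the 36 tested genes, for HOPE 24 h over SCS 2 h on the left and without NRP over NRP + SCS 2 h on the right, with red for an unadjusted p under 0.05. On the left 4 genes are red and on the right 6, all of them below 0.

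The troponins, which make the thin filament respond to calcium, included the 3 most abundant of the 38 genes, TNNI3, TNNC1 and TNNT2. TNNT2, the cardiac subunit that binds tropomyosin, stood at 9037, 10101 and 8070 TPM after NRP + SCS 2 h, at 9205, 7220 and 15218 TPM after NRP + HOPE 24 h, and at 9303, 8445 and 10501 TPM without NRP. Pig 30 was well above the other 8 hearts, and the groups overlapped. Its log2 fold change was 0.15 (95% confidence interval -0.37 to 0.68) for HOPE 24 h over SCS 2 h and 0.05 (-0.47 to 0.58) without NRP relative to NRP + SCS 2 h. TNNC1, the calcium-binding subunit, stood at 11213, 11525 and 9617 TPM, then 10433, 8416 and 15935 TPM, then 9927, 9589 and 12410 TPM. Pig 30 was again the highest and pig 28 the lowest, and the fold changes were 0.06 (-0.43 to 0.55) and -0.02 (-0.51 to 0.47). TNNI3, the inhibitory subunit of the adult heart, stood at 16475, 15395 and 10746 TPM, then 13287, 7841 and 11974 TPM, then 13320, 11893 and 15075 TPM. Here pig 24 was the highest and pig 28 the lowest, pig 30 was not raised, and the log2 fold change of HOPE 24 h over SCS 2 h was -0.38 (-0.87 to 0.12). For these 3 troponins the intervals exclude a change of 1 on the log2 scale in either direction in both comparisons.

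Among the actins, ACTC1, the cardiac alpha-actin, stood at 1362, 1446 and 1292 TPM after NRP + SCS 2 h, at 966, 1694 and 2324 TPM after NRP + HOPE 24 h, and at 1348, 538 and 1084 TPM without NRP. The 3 NRP + SCS 2 h hearts lay close together inside the range of the NRP + HOPE 24 h hearts, and pig 33 was the lowest. ACTC1 differed between NRP + HOPE 24 h and No NRP + HOPE 2 h by 0.76 on the log2 scale (limma unadjusted p = 0.0488, adjusted p = 0.829), and these groups overlapped. ACTA1, the skeletal alpha-actin that the heart also makes, stood at 4985, 4914 and 5520 TPM, then 3337, 3818 and 6923 TPM, then 2504, 4898 and 4211 TPM. All 3 hearts without NRP were below the 3 NRP + SCS 2 h hearts, by a narrow margin in pig 33, and the log2 fold change was -0.46 (-1.09 to 0.16). TPM1, the main tropomyosin, which covers the myosin-binding sites of actin, stood at 3072, 3334 and 3125 TPM, then 2181, 3426 and 4429 TPM, then 2367, 3027 and 2678 TPM. All 3 hearts without NRP were below the 3 NRP + SCS 2 h hearts, and the log2 fold changes relative to NRP + SCS 2 h were 0.02 after HOPE 24 h and -0.25 without NRP. TPM2, its less abundant relative, stood at 618, 759 and 578 TPM, then 510, 659 and 1049 TPM, then 637, 726 and 694 TPM. Its groups overlapped, and the log2 fold changes were 0.13 and 0.08.

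TMOD1 (ENSSSCG00000023010) encodes tropomodulin 1, which caps the pointed end of the thin filament. It stood at 15.1, 16.8 and 10.8 TPM after NRP + SCS 2 h, at 5.37, 9.06 and 14.6 TPM after NRP + HOPE 24 h, and at 5.31, 4.42 and 5.26 TPM without NRP. The 3 hearts without NRP lay below all 6 hearts with NRP, although pig 27 was barely above pig 31. The means were 14.2 ± 3.10 TPM after NRP + SCS 2 h and 4.997 ± 0.503 TPM without NRP (SD, n = 3 each). The log2 fold change of -1.32 (SE 0.35, 95% confidence interval -2.07 to -0.57) had an unadjusted limma p of 0.00205 and an adjusted p of 0.345. LMOD2, which lengthens the thin filament from the same end, differed by 0.10 on the log2 scale in that comparison, with 306, 277 and 253 TPM against 237, 274 and 409 TPM.

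Most thick filament transcripts did not separate the groups. The row named MYH7, after the beta myosin heavy chain, stood at 1423, 1753 and 1564 TPM after NRP + SCS 2 h, at 1209, 1086 and 2514 TPM after NRP + HOPE 24 h, and at 1164, 1161 and 2018 TPM without NRP. Its identifier, ENSSSCG00000002029, is paired with MYH6, the alpha myosin heavy chain, in the reference table, so which of these near-identical cardiac myosins the row measures is uncertain. The groups overlapped, and the log2 fold changes were -0.08 (-0.76 to 0.60) and -0.17 (-0.85 to 0.51) relative to NRP + SCS 2 h. MYL3, the ventricular essential light chain, stood at 6971, 8675 and 5412 TPM, then 7222, 4772 and 11123 TPM, then 6821, 4969 and 8576 TPM. Pig 30 was the highest and pig 28 the lowest, and the log2 fold changes were 0.08 and -0.06. MYBPC3, which tunes the movement of the myosin heads, had log2 fold changes of -0.26 and -0.21.

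MYH7B (ENSSSCG00000007288) was the thick filament exception. This gene encodes a further myosin heavy chain, and in the reference annotation the microRNA gene MIR499 is listed next to it. MYH7B stood at 247, 187 and 268 TPM after NRP + SCS 2 h, at 73.0, 67.8 and 94.2 TPM after NRP + HOPE 24 h, and at 128, 210 and 350 TPM without NRP. The 3 hearts stored for 24 h lay below all 6 hearts stored for 2 h, and MYH7B was low in pig 30, the highest heart for 16 of the 36 genes. The means were 234 ± 42.2 TPM after NRP + SCS 2 h, 78.3 ± 14.0 TPM after NRP + HOPE 24 h and 230 ± 112 TPM in No NRP + HOPE 2 h (SD, n = 3 each). Relative to NRP + SCS 2 h, the log2 fold change after HOPE 24 h was -1.56 (SE 0.34, 95% confidence interval -2.29 to -0.84, limma unadjusted p = 0.00039, adjusted p = 0.199). Relative to No NRP + HOPE 2 h it was -1.44 (SE 0.34, -2.16 to -0.71, unadjusted p = 0.000805, adjusted p = 0.27). Hearts stored in HOPE for 24 h thus differed from both groups stored for 2 h at the unadjusted threshold and from neither after adjustment over all genes. Array weights, which give less influence to variable hearts, brought the first of these to an adjusted p of 0.0234. They also brought more of all genes under the unadjusted threshold than the main fit did. Of the 36 genes, MYH7B was the only one with all 3 hearts of NRP + HOPE 24 h below the other 6, beside 1.42% of all genes tested, and 0 had them above the other 6, beside 0.586%.

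At the M-band, which holds the thick filaments in register, MYOM1 had log2 fold changes of -0.15 after HOPE 24 h and -0.10 without NRP, both relative to NRP + SCS 2 h. CMYA5, a large protein at the edge of the Z-disc that also binds titin, had log2 fold changes of -0.16 and -0.19. Neither passed an unadjusted p under 0.05 in any comparison.

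The Z-disc held 3 of the 6 genes that were lower without NRP at an unadjusted p under 0.05 (PDLIM4, FLNC and MYPN) and 13 of the 36 genes tested. Of these 13, 11 (84.6%) were below 0 in No NRP + HOPE 2 h relative to NRP + SCS 2 h, with a median of -0.39, beside 57.8% and -0.07 for all genes. After HOPE 24 h, 8 of the 13 (61.5%) were below 0, with a median of -0.13, close to the 64.1% and -0.12 of all genes. Lower medians without NRP were not limited to the Z-disc. The median was -0.99 for the 3 stress-responsive genes, -0.74 for the 3 genes of assembly and turnover, -0.17 for the 5 thick filament genes, -0.15 for the 2 genes of titin and the M-band, and -0.04 for the 10 thin filament genes. Those 5 medians after HOPE 24 h were -0.00, -0.52, -0.26, -0.16 and -0.03, in the same order. A difference between roles was not tested.

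PDLIM4 (ENSSSCG00000014274), a PDZ and LIM domain protein that binds alpha-actinin, stood at 45.4, 56.3 and 27.4 TPM after NRP + SCS 2 h, at 19.3, 20.1 and 51.0 TPM after NRP + HOPE 24 h, and at 6.61, 8.60 and 10.05 TPM without NRP. All 3 hearts without NRP were below all 6 hearts with NRP, and within NRP + HOPE 24 h pig 30 was far above pigs 27 and 28. The means were 43.0 ± 14.6 TPM, 30.1 ± 18.1 TPM and 8.42 ± 1.73 TPM (SD, n = 3 each). In No NRP + HOPE 2 h relative to NRP + SCS 2 h, the log2 fold change was -2.18 (SE 0.39, 95% confidence interval -3.03 to -1.34, limma unadjusted p = 7.87e-05, adjusted p = 0.0843). PDLIM4 was thus not called, but it came within the call under median-of-ratios scaling (adjusted p = 0.0297) and with the mitochondrially encoded genes left out of the total (adjusted p = 0.0276). The share of all genes called under these alternatives is not given here. NRP + HOPE 24 h stood above No NRP + HOPE 2 h by 1.60 (SE 0.39, 0.75 to 2.44, unadjusted p = 0.00124, adjusted p = 0.3).

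FLNC (ENSSSCG00000016578) encodes filamin C, which cross-links actin at the Z-disc and the intercalated disc. It stood at 1318, 1315 and 976 TPM after NRP + SCS 2 h, at 588, 582 and 1156 TPM after NRP + HOPE 24 h, and at 272, 425 and 534 TPM without NRP. The order of the groups was that of PDLIM4, with the 3 hearts without NRP below all others and pig 30 above the other NRP + HOPE 24 h hearts. Without NRP, the mean was 411 ± 132 TPM, against 1203 ± 197 TPM in NRP + SCS 2 h and 775 ± 330 TPM in NRP + HOPE 24 h (SD, n = 3 each). Relative to NRP + SCS 2 h, the log2 fold change without NRP was -1.59 (SE 0.32, 95% confidence interval -2.27 to -0.91, limma unadjusted p = 0.0002, adjusted p = 0.112). As with PDLIM4, median-of-ratios scaling brought FLNC within the call (adjusted p = 0.0297), again without a share of all genes called to set beside it. After HOPE 24 h the log2 fold change was -0.70 (-1.38 to -0.02, unadjusted p = 0.0449, adjusted p = 0.985), and those groups overlapped. TMOD1, PDLIM4 and FLNC were the 3 genes of the 36 (8.33%) with every heart without NRP below all 6 with NRP, beside 1.26% of all genes tested. In the reverse direction there were 0 of the 36, beside 1.09% of all genes.

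MYPN (ENSSSCG00000029311), myopalladin, which links alpha-actinin to nebulette and to ANKRD1, was lower in both other groups than after NRP + SCS 2 h. It stood at 19.7, 22.9 and 24.0 TPM after NRP + SCS 2 h, at 7.41, 11.1 and 14.3 TPM after NRP + HOPE 24 h, and at 4.91, 8.60 and 16.5 TPM without NRP. All 6 hearts of the other groups lay below the 3 NRP + SCS 2 h hearts. The log2 fold changes were -0.996 (SE 0.38, unadjusted p = 0.0217, adjusted p = 0.933) after HOPE 24 h and -1.21 (SE 0.38, unadjusted p = 0.00726, adjusted p = 0.483) without NRP. Since both are set against the same 3 hearts, they are not independent of each other.

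Of the remaining PDZ and LIM domain genes, PDLIM3 stood at 33.3, 20.1 and 31.6 TPM after NRP + SCS 2 h, at 11.1, 21.7 and 13.9 TPM after NRP + HOPE 24 h, and at 12.2, 17.9 and 22.3 TPM without NRP. Pig 25 lay below pigs 28 and 34, so both comparisons overlapped, and the log2 fold changes were -0.84 (unadjusted p = 0.0272, adjusted p = 0.943) and -0.67 (unadjusted p = 0.0686). PDLIM5 had log2 fold changes of 0.15 after HOPE 24 h and -0.39 without NRP, so the 3 genes of this family did not share 1 pattern of values.

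The core of the Z-disc and its link to desmin showed intervals that include 0. ACTN2, the alpha-actinin that cross-links the thin filaments, had 556, 491 and 589 TPM after NRP + SCS 2 h, 253, 396 and 629 TPM after NRP + HOPE 24 h, and 357, 524 and 799 TPM without NRP. The groups overlapped, and the log2 fold changes were -0.45 and -0.04. DES, the muscle intermediate filament, stood at 1459, 1886 and 1746 TPM, then 909, 1428 and 2806 TPM, then 747, 1415 and 1448 TPM. The hearts without NRP were all below those of NRP + SCS 2 h, pig 34 by little, and the log2 fold change was -0.55. TCAP, which caps the end of titin, had log2 fold changes of 0.01 and 0.18, and NEBL, nebulette, had -0.33 and -0.04. CSRP3, a LIM protein of the Z-disc, had 0.28 and -0.30. MYOT, FHL2 and SYNPO2L, which also belong to the Z-disc, had log2 fold changes of 0.11, -0.06 and 0.62 after HOPE 24 h and -0.01, -0.50 and 0.52 without NRP, in each case relative to NRP + SCS 2 h. SYNPO2L was low, with 2.07 to 7.26 TPM.

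Among the stress-responsive genes, the ankyrin repeat proteins that bind titin had their lowest means without NRP. ANKRD1 (ENSSSCG00000010461) stood at 5009, 4632 and 3790 TPM after NRP + SCS 2 h, at 2557, 4664 and 4631 TPM after NRP + HOPE 24 h, and at 1589, 2285 and 3070 TPM without NRP. Pigs 31, 33 and 34 lay below all 3 NRP + SCS 2 h hearts, and pig 27 lay among the hearts without NRP. The log2 fold change without NRP relative to NRP + SCS 2 h was -0.99 (SE 0.28, 95% confidence interval -1.60 to -0.38, limma unadjusted p = 0.00365, adjusted p = 0.414). NRP + HOPE 24 h stood above No NRP + HOPE 2 h by 0.77 (unadjusted p = 0.0171, adjusted p = 0.685) and differed from NRP + SCS 2 h by -0.22.

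ANKRD2 (ENSSSCG00000010522), its less abundant relative, stood at 50.01, 47.9 and 24.6 TPM after NRP + SCS 2 h, at 33.1, 76.9 and 92.0 TPM after NRP + HOPE 24 h, and at 2.57, 32.0 and 8.60 TPM without NRP. The 3 NRP + HOPE 24 h hearts lay above the 3 hearts without NRP, but only just for pig 27 against pig 33, and pig 33 lay above pig 29. The hearts without NRP spread widely, with pig 31 the lowest and pig 33 the highest. The log2 fold change of NRP + HOPE 24 h over No NRP + HOPE 2 h was 2.59 (SE 0.63, 95% confidence interval 1.23 to 3.96, limma unadjusted p = 0.00117, adjusted p = 0.3). Over 18 alternatives it ran from 1.75 to 3.42 (adjusted p 0.0198 to 1) and was called in 1 of them, without pig 33. Relative to NRP + SCS 2 h, the log2 fold change without NRP was -1.94 (SE 0.63, -3.30 to -0.58, unadjusted p = 0.00873, adjusted p = 0.499). XIRP2, an actin-binding protein of the intercalated disc, had log2 fold changes of -0.00 and -0.06 relative to NRP + SCS 2 h.

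**Figure D4:**
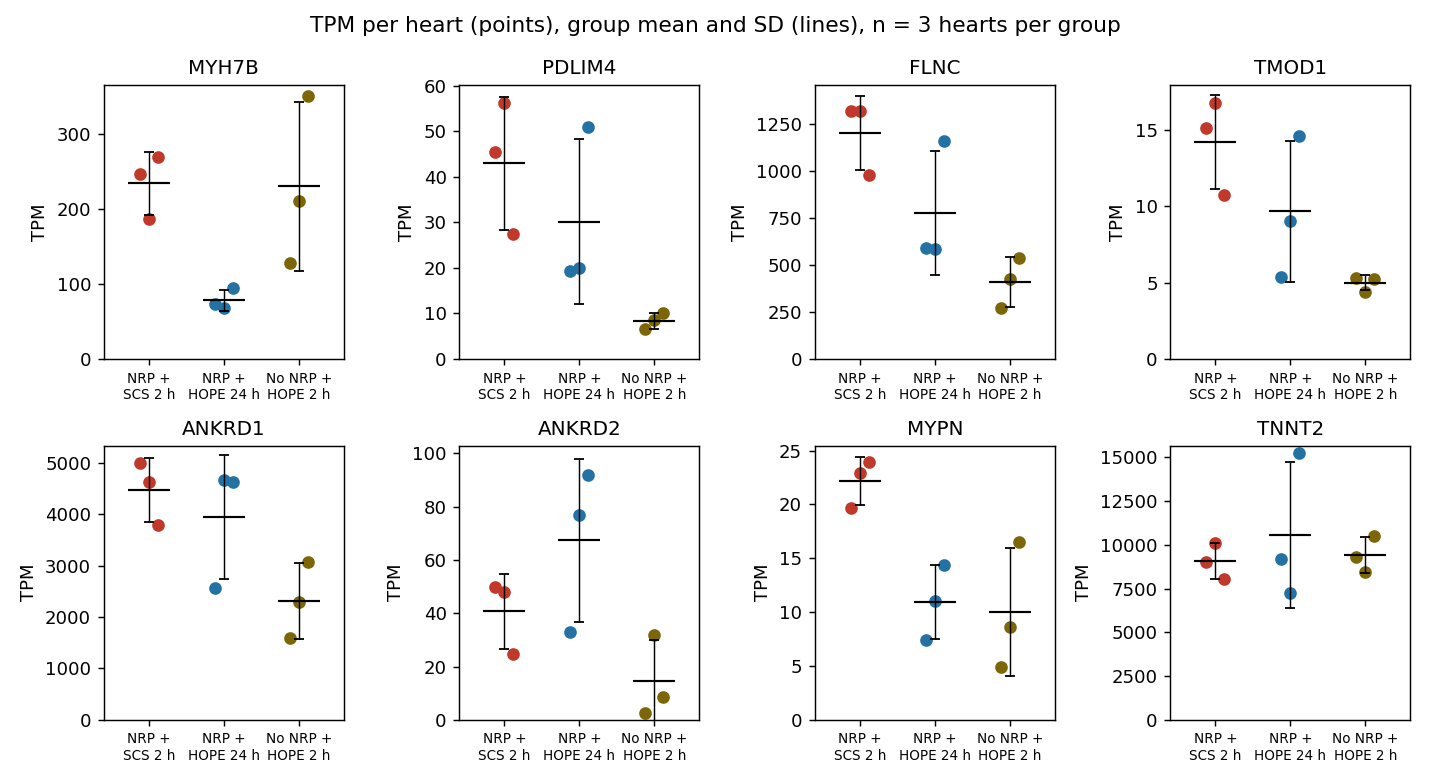
TPM per heart (points) with group mean and SD (lines, n = 3 hearts per group) for 8 genes, each panel with its own linear axis from 0, which hides the lower end of the SD of ANKRD2 without NRP. MYH7B is low in the 3 NRP + HOPE 24 h hearts, PDLIM4, FLNC and TMOD1 are lowest in the 3 No NRP + HOPE 2 h hearts, and TNNT2 overlaps between all groups.

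UNC45B, a chaperone that folds myosin, stood at 33.5, 41.1 and 35.4 TPM after NRP + SCS 2 h, at 15.8, 20.03 and 36.0 TPM after NRP + HOPE 24 h, and at 14.0, 19.4 and 35.8 TPM without NRP. Pigs 30 and 34 reached the level of the NRP + SCS 2 h hearts and the other 4 did not, and the log2 fold changes were -0.67 (unadjusted p = 0.0944) and -0.74 (unadjusted p = 0.0675). TRIM63, the muscle ubiquitin ligase MuRF1, had log2 fold changes of -0.52 and -0.84 (unadjusted p = 0.0501 and adjusted p = 0.69 for the second). SMYD1, a muscle methyltransferase needed for myofibril assembly, had 0.26 and 0.33.

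NRP + HOPE 24 h was also set against No NRP + HOPE 2 h, which differ in both NRP and storage time. Of the 36 genes, 0 were called, beside 0.0509% of all genes. At an unadjusted p under 0.05, 5 were higher after NRP + HOPE 24 h (ACTC1, PDLIM4, FLNC, ANKRD1 and ANKRD2), beside 2.78% of all genes, and 1 was lower (MYH7B), beside 3.23% of all genes. That is 6 of the 36 in either direction (16.7%), beside 6.01% of all genes. The median log2 fold change of the 36 was 0.10, beside -0.03 for all genes, and 11 of the 36 (30.6%) were below 0, beside 53.9% of all genes. Without pig 30 this median was -0.14, and without pig 27 it was 0.31. This comparison shares hearts with both of the others.

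The groups were also compared without any model, by whether their hearts overlapped. Without NRP, 10 of the 36 genes had all 3 hearts below the 3 NRP + SCS 2 h hearts (ACTA1, TPM1, TMOD1, DES, PDLIM4, PDLIM5, MYPN, FLNC, FHL2 and ANKRD1), beside 10.3% of all genes. None of the 36 had all 3 above, beside 4.44% of all genes. After HOPE 24 h, 2 of the 36 had all 3 hearts below those of NRP + SCS 2 h (MYH7B and MYPN), beside 7.32% of all genes, and 0 had all 3 above, beside 2.5%. The 2 are 5.56% of the 36, below the background, whereas the 4 at an unadjusted p under 0.05 were above theirs. Between NRP + HOPE 24 h and No NRP + HOPE 2 h, 4 of the 36 were higher in every NRP + HOPE 24 h heart (TMOD1, PDLIM4, FLNC and ANKRD2), beside 2.97% of all genes, and 1 was lower (MYH7B), beside 4.51%.

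Several genes occur in pairs of related isoforms, whose ratio within a heart does not depend on how the heart was scaled. The ratio of MYH7B to the row named MYH7 was 0.173, 0.107 and 0.172 after NRP + SCS 2 h, 0.0604, 0.0624 and 0.0375 after NRP + HOPE 24 h, and 0.110, 0.181 and 0.174 without NRP. The NRP + HOPE 24 h hearts lay below the other 6, by -1.50 on the log2 scale relative to NRP + SCS 2 h (exact two-sided permutation test, p = 0.1, adjusted p = 0.375 over 15 tests). This p is the smallest that 3 hearts against 3 can give, so no ratio could reach 0.05. The ratio of TPM2 to TPM1 was 0.201, 0.228 and 0.185, then 0.234, 0.192 and 0.237, then 0.269, 0.240 and 0.259. It was higher in each heart without NRP than in the 6 hearts with NRP, by 0.33 on the log2 scale relative to NRP + SCS 2 h (exact permutation p = 0.1, adjusted p = 0.375).

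The other ratios overlapped between groups. ACTA1 to ACTC1 was 3.66, 3.40 and 4.27, then 3.45, 2.25 and 2.98, then 1.86, 9.11 and 3.88, so pigs 31 and 33 of the same group held the lowest and the highest ratio. TNNI1, the slow skeletal troponin I of the fetal heart, stood at 15.1, 12.8 and 6.49 TPM, then 4.06, 16.2 and 4.22 TPM, then 9.11, 7.26 and 29.0 TPM. Its level was highest in pig 34, and its ratio to TNNI3 was highest in pig 28, at 0.00207. MYL4, the atrial essential light chain, was at most 0.00639 of MYL3. MYL4 stood at 40.4, 55.4 and 4.90 TPM after NRP + SCS 2 h, 13.4, 9.81 and 33.7 TPM after NRP + HOPE 24 h, and 2.81, 21.2 and 40.0 TPM without NRP. The MYL4 groups overlapped, and of the 8 atrial markers in the table NPPA ranged from 23.2 to 411 TPM. Relative to NRP + SCS 2 h, 5 of the 7 tested were below 0 after HOPE 24 h and 4 without NRP, beside 64.1% and 57.8% of all genes. NR2F2 was lower without overlap in both (-0.95, limma unadjusted p = 0.0177, adjusted p = 0.901, and -1.14, unadjusted p = 0.00625, adjusted p = 0.472). SLN was lower without overlap after HOPE 24 h (-1.51, unadjusted p = 0.0183, adjusted p = 0.903).

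**Figure D5:**
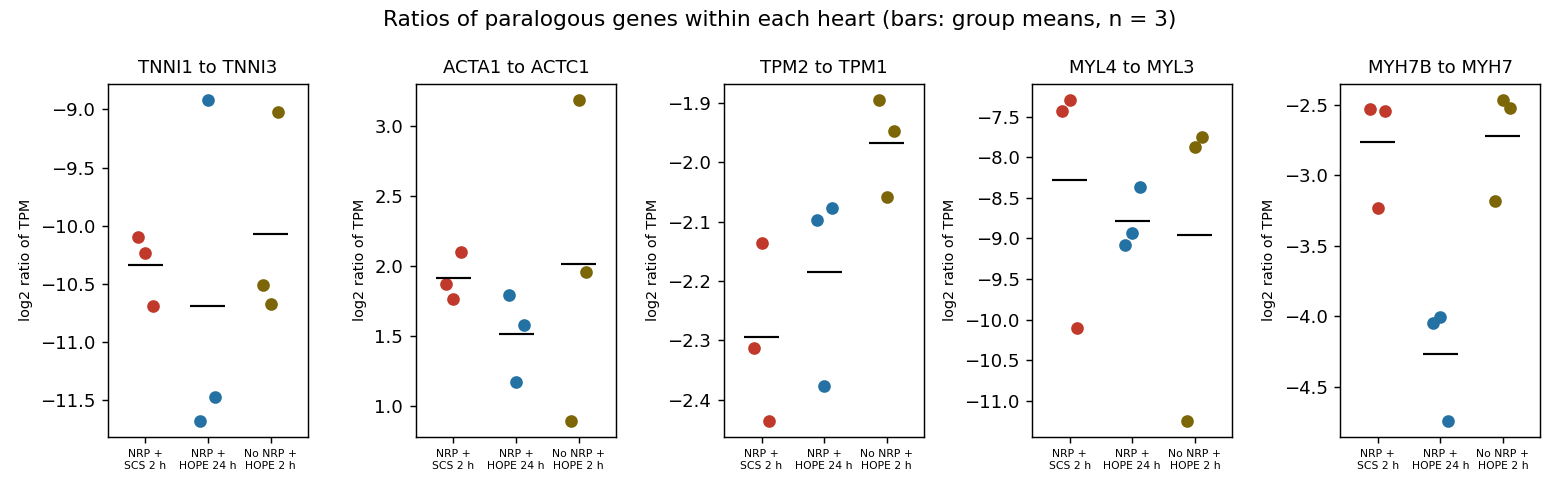
Log2 ratio of the TPM of related genes within each heart (points), with the group mean as a bar (n = 3 hearts per group), in 5 panels with their own axes that do not start at 0. MYH7B to MYH7 is lowest in the 3 NRP + HOPE 24 h hearts and TPM2 to TPM1 highest in the 3 No NRP + HOPE 2 h hearts, and the remaining 3 ratios overlap.

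Across the 9 hearts, the contractile genes moved together unequally. The median Pearson correlation of log2(TPM + 1) over all 630 pairs of the 36 genes was 0.356. The closest pairs were TNNT2 with TNNC1 (0.972), PDLIM4 with FLNC (0.963), ACTA1 with DES (0.946), MYPN with UNC45B (0.945) and TMOD1 with PDLIM4 (0.943). FLNC with ANKRD1 gave 0.887 and ANKRD1 with ANKRD2 gave 0.800. TCAP and XIRP2 ran in opposite directions, at -0.867. These values describe 9 hearts that share the group differences, the mitochondrially encoded share and the scale of each library, and carry no test.

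Markers of other cell types are given for comparison, and their part in the results was not tested. Of 19 cardiomyocyte markers outside the sarcomere, 11 were in the table, and their summed level ran from 1670 to 2246 TPM after NRP + SCS 2 h, 1429 to 2805 TPM after NRP + HOPE 24 h, and 1489 to 2116 TPM without NRP. In No NRP + HOPE 2 h relative to NRP + SCS 2 h, 11 of these 11 were below 0, with a median of -0.23, beside 57.8% and -0.07 for all genes, and RBM20, a splicing factor of titin, was 1 of them with an unadjusted p of 0.0404 (limma adjusted p = 0.684). After HOPE 24 h, 6 of the 11 were below 0, with a median of -0.02, beside 64.1% and -0.12 for all genes. The summed endothelial markers, 11 of 13 in the table, ran from 844 to 1007 TPM, 469 to 989 TPM, and 494 to 1027 TPM in the same order of groups, and relative to NRP + SCS 2 h all 11 were below 0 after HOPE 24 h, with a median of -0.47, and 9 of the 11 without NRP, with a median of -0.33. The fibroblast markers, 7 of 11 in the table, ran from 723 to 1050 TPM, 801 to 1214 TPM, and 1105 to 1224 TPM. Opposite in sign to the contractile medians, their median log2 fold change relative to NRP + SCS 2 h was 0.11 after HOPE 24 h, with 6 of 7 above 0, and 0.27 without NRP, with 5 of 7 above 0. The smooth muscle and pericyte markers include DES, itself 1 of the 38 genes, and without it the 9 in the table ran from 351 to 495 TPM, 240 to 451 TPM, and 462 to 531 TPM, with a median log2 fold change of 0.21 without NRP relative to NRP + SCS 2 h and -0.44 after HOPE 24 h. HBB, the beta-globin of red cells, stood at 70.8, 132 and 78.4 TPM, then 73.5, 339 and 420 TPM, then 220, 368 and 220 TPM. Its log2 fold change relative to NRP + SCS 2 h was 1.27 after HOPE 24 h (limma unadjusted p = 0.0284, adjusted p = 0.943) and 1.52 without NRP (unadjusted p = 0.0111, adjusted p = 0.516). The NMP circuit of every heart was primed with whole blood, and the HOPE perfusate also held packed red cells of the donor, which the SCS hearts did not receive during storage. S100A9, a calcium-binding protein of neutrophils, stood at 8.02, 4.78 and 1.79 TPM after SCS, at 0.356, 0.774 and 2.65 TPM after HOPE 24 h, and at 0.343, 0.199 and 0 TPM without NRP. Its log2 fold changes were -1.35 after HOPE 24 h (limma unadjusted p = 0.0117, adjusted p = 0.792) and -2.17 without NRP (unadjusted p = 0.000389, adjusted p = 0.14). S100A9 was 1 of only 2 neutrophil markers that could be tested. The other, MMP9, had log2 fold changes of 0.58 after HOPE 24 h, opposite in sign to S100A9, and -0.08 without NRP. LCK, a T cell kinase, had log2 fold changes of 1.05 after HOPE 24 h (limma unadjusted p = 0.00459, adjusted p = 0.582) and 0.89 without NRP (unadjusted p = 0.0124, adjusted p = 0.533). Of the 7 lymphocyte markers tested, LCK included, 4 were above 0 and 3 below after HOPE 24 h, with a median of 0.20. Without NRP 6 were above 0 and 1 below, with a median of 0.51, both relative to NRP + SCS 2 h.

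Other genes of the apparatus, and those that build and regulate it, gave 0 limma calls as well. The backgrounds for the counts that follow are the shares of all genes given above, 3.14% lower and 1.82% higher after HOPE 24 h and 4.65% lower and 2.57% higher without NRP. Of 36 further sarcomere and Z-disc genes, 21 could be tested. After HOPE 24 h relative to SCS 2 h, 0 were higher and 0 were lower at an unadjusted p under 0.05, and without NRP relative to NRP + SCS 2 h 1 was higher (TMOD4, a tropomodulin, by 0.82) and 0 were lower. Their medians were -0.14 and -0.30. Of 13 tested chaperones and ubiquitin ligases, 1 was lower after HOPE 24 h at that threshold and 0 without NRP. This was FBXO32, the ubiquitin ligase atrogin-1, with 92.0, 112 and 98.6 TPM after NRP + SCS 2 h against 59.7, 39.6 and 64.2 TPM after NRP + HOPE 24 h (log2 fold change -0.90, unadjusted p = 0.0222, adjusted p = 0.933). Those hearts did not overlap. Of 13 tested SRF, MEF2 and cardiac transcription factors, MEF2D was lower after HOPE 24 h (-0.74, limma unadjusted p = 0.0373, adjusted p = 0.965) and GATA4 was lower without NRP (-0.97, unadjusted p = 0.0483, adjusted p = 0.689). Of 12 skeletal muscle isoforms in the table, 5 could be tested, and MYL1, a skeletal essential light chain, was the 1 higher after HOPE 24 h at that threshold, with 0 lower. MYL1 stood at 17.6, 5.01 and 27.1 TPM after NRP + SCS 2 h, at 46.8, 40.3 and 21.4 TPM after NRP + HOPE 24 h, and at 9.83, 19.9 and 7.89 TPM without NRP. The NRP + HOPE 24 h hearts lay above all 3 without NRP and overlapped with NRP + SCS 2 h, and the log2 fold changes were 1.49 (unadjusted p = 0.0125, adjusted p = 0.635) and 1.27 (unadjusted p = 0.028, adjusted p = 0.943). TNNT1, the slow skeletal troponin T, lay between 106 and 271 TPM. SRF itself, which drives many contractile genes, had log2 fold changes of -0.25 and -0.26.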

How the data were processed

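RNA from 9 apex biopsies was sequenced in paired ends. Per the supplementary methods and the submitters' processing notes, the authors trimmed reads with Trimmomatic 0.36, aligned them to the pig genome with STAR 2.5.2b and counted unique exon reads with featureCounts of Subread 1.5.2. Libraries were required to pass an RNA quality limit. The genome build is not given in the sources used here, so no coordinates are printed. The authors deposited TPM, not counts, so the DESeq2 test of the authors was replaced by limma 3.58.1 in R 4.3.3 on log2(TPM + 1), fitting the 3 group means to all 9 hearts with a variance trend (eBayes) and Benjamini-Hochberg adjustment over 11782 genes. Genes under 1 TPM in more than 6 hearts were left out. The fit was tested on simulated data. Of the table, 9 columns not tied to a sample were not used, 12006 rows have no symbol, and 0 spike-in rows are listed. Rows were matched by symbol. Of the 38 identifiers, the reference table paired 33 with the same symbol and 1 with another, and 4 were not in it.

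The members and lists were chosen with earlier results of these data known. Values in every heart are given for the 6 members with the smallest p in each comparison, the 6 most abundant and the members of the isoform ratios. A few others are given in full because their levels were of interest after they were seen (LMOD2, ACTN2 and DES). Up to 3 genes of each other list are named by the smallest p and, for markers, up to 3 more from those with the highest mean level, and SRF was added as background. Of 7 isoform ratios, 5 could be computed, and they were compared by exact permutation. Alternatives were other scalings, filters, pseudocounts, variance models and samples, and each heart left out.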

Additional observations from a re-analysis of the deposited data

How the results depend on the processing

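No paired analysis was possible because no pig number is shared between groups. With 3 hearts a group and unknown depth, small changes could not be detected, and 11 of the 49 genes were not found by symbol. Large fold changes also went uncalled, such as that of PDLIM4 without NRP relative to NRP + SCS 2 h (-2.18, limma adjusted p = 0.0843). The lack of calls therefore does not exclude large changes. All alternatives below were applied to the tests of the 36 genes, and ACTC1, ANKRD1, ANKRD2, FLNC, MYH7B, MYPN, PDLIM3, PDLIM4, TMOD1 and UNC45B reversed under none of them in the comparisons in which they were among the 6 genes with the smallest p. The causes of the changes below were not tested.

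After HOPE 24 h relative to SCS 2 h, array weights gave 1 call (MYH7B). At an unadjusted p under 0.05 there were 7 genes (6 lower, 19.4%) with quantile normalization, beside 8.50% of all genes in the same fit, and 10 (9 lower, 27.8%) with array weights, beside 15.4%. Leaving out hearts gave 2 to 8 (8 or 22.2% without pig 30, beside 10.7%, and 2 or 5.56% without pig 24, 25 or 27, beside 3.50%, 4.46% and 5.53%). Genes whose groups did not overlap were 4 each with quantile normalization, with median-of-ratios scaling and without the mitochondrially encoded genes (10.5% to 11.1%, beside 14.6% to 15.6% of all genes). When hearts were left out they were 2 to 14, with 14 (38.9%, beside 37.3%) without pig 30, 8 (22.2%, beside 20.8%) without pig 27, 6 (16.7%, beside 17.1%) without pig 29, and 4 (11.1%) without pig 25 or 28 (beside 17.7% and 13.5%). The fold change of MYH7B ranged from -1.72 to -1.42 (adjusted p 0.0234 to 1) over 18 alternatives.

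In No NRP + HOPE 2 h relative to NRP + SCS 2 h, there was 1 call with a mean TPM of at least 5 (PDLIM4, adjusted p = 0.0413). There were 2 calls each with quantile normalization, with median-of-ratios scaling and without the mitochondrially encoded genes (PDLIM4 and FLNC), and 3 with array weights (PDLIM4, FLNC and TMOD1, adjusted p = 0.00522, 0.00669 and 0.02). Leaving out hearts gave 0 to 1 calls (PDLIM4 without pig 29, adjusted p = 0.0494, or without pig 30, 0.0318). At an unadjusted p under 0.05 there were 11 genes (30.6%) with array weights, beside 15.8% of all genes, and 6 to 9 (16.7% to 25.0%) when hearts were left out, beside 4.12% to 9.43%. Genes that did not overlap were 10 to 17 when hearts were left out (27.8% to 47.2%, beside 14.7% to 28.2% of all genes, with 17 without pig 29, beside 25.5%) and 8 to 12 under the other alternatives (22.2% to 33.3%, beside 8.08% to 18.0%). The median was -0.44 (without pig 34) to -0.070 when hearts were left out and -0.27 to -0.10 under the other alternatives. Over 18 alternatives, PDLIM4 ranged from -2.47 to -1.96 (adjusted p 0.00522 to 0.746, called in 7), FLNC from -1.81 to -1.32 (adjusted p 0.00669 to 0.873, called in 4), TMOD1 from -1.50 to -1.20 (called in 1), ANKRD1 from -1.22 to -0.75, MYPN from -1.62 to -0.83 and ANKRD2 from -2.77 to -1.07 (each called in 0).

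For NRP + HOPE 24 h relative to No NRP + HOPE 2 h, leaving out hearts gave 0 to 1 calls (ANKRD2 without pig 33), 4 to 11 genes at an unadjusted p under 0.05 (11 or 30.6% without pig 27, beside 8.38% of all genes) and 5 to 11 that did not overlap (11 or 30.6% without pig 27, beside 20.7%, and 8 or 22.2% without pig 33, beside 14.5%). Median-of-ratios scaling gave 8 (22.2%) that did not overlap, beside 16.3%.

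Without the mitochondrially encoded genes, the mean summed share of the members was 13.5% after NRP + SCS 2 h, 12.9% after NRP + HOPE 24 h and 11.97% without NRP. When hearts were left out, several isoform ratios changed sign. The log2 difference of TNNI1 to TNNI3 ran from -1.23 to 0.15 for HOPE 24 h over SCS 2 h and from -0.25 to 0.57 without NRP relative to NRP + SCS 2 h. That of ACTA1 to ACTC1 ran from -0.49 to 0.66 without NRP relative to NRP + SCS 2 h and from -1.06 to 0.086 for NRP + HOPE 24 h over No NRP + HOPE 2 h, and that of MYL4 to MYL3 from -1.59 to 0.47 and from -0.98 to 0.77. MYH7B to MYH7 ran from -0.19 to 0.27 without NRP relative to NRP + SCS 2 h.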

Other observations

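The table holds rows without a symbol whose identifiers the reference table pairs with genes that were not found by symbol. NEXN (ENSSSCG00000003768), nexilin, an actin-binding protein of the Z-disc, stood at 812, 635 and 825 TPM after NRP + SCS 2 h, at 566, 666 and 474 TPM after NRP + HOPE 24 h, and at 342, 503 and 437 TPM in No NRP + HOPE 2 h. The hearts without NRP all lay below the NRP + SCS 2 h hearts, and pig 30, the highest heart for 16 of the 36 tested genes, was the lowest of its group. The log2 fold change without NRP was -0.83 (SE 0.24, limma unadjusted p = 0.00393, adjusted p = 0.414).

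MYOM2 (ENSSSCG00000015747), an M-band protein, stood at 634, 669 and 764 TPM after NRP + SCS 2 h, at 319, 282 and 618 TPM after NRP + HOPE 24 h, and at 348, 330 and 654 TPM without NRP. In each of the latter groups 1 heart, pig 30 or pig 34, was close to or within the range of the NRP + SCS 2 h hearts and the other 2 lay far below. The log2 fold changes were -0.84 (unadjusted p = 0.0227, adjusted p = 0.934) after HOPE 24 h and -0.70 (unadjusted p = 0.0517, adjusted p = 0.692) without NRP. Both genes were looked up by identifier after the members had been matched by symbol, and neither is counted among the 38.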
